A study of Rattus norvegicus with 10 samples.

Results

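Interferon-stimulated genes were followed in the livers of 10 rats, each measured on 1 Affymetrix array. The members were 36 listed genes of the antiviral and inflammatory interferon response. A member entered when the platform annotation gave a probe set that symbol and no other; 33 of the 36 did, with 44 probe sets. Gbp5, Xaf1 and Trim21 had none and were not analysed here. All 44 probe sets lay over the intensity filter, in a series of 18625 probe sets tested that represent 10328 named genes. The list was proposed after an earlier look at these data had shown interferon genes with higher means in mulberry rats. The difference between the groups in these genes is therefore given as a description and without a test of its own.

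All 10 animals were Wistar/ST rats on a high-fat diet, and all were dosed by gastric probe with carboxymethylcellulose as the carrier. The dose was 0 in the 5 rats of the control group and 500 mg of dried mulberry leaf powder per kg per day in the 5 rats of the mulberry group. On which days of the week the rats were dosed is unclear in the sources and is not given here. Livers were taken after 7 weeks. Sex and age are not given in the sources used here. Each array held the liver RNA of 1 rat, so the spread within a group is that between animals. Pearson correlations between arrays over all probe sets were 0.957 to 0.975, so no array was a copy of another. For Gapdh the log2 ratio between its 3′ and 5′ probe sets, a measure of RNA integrity, was 0.22 ± 0.16 in the controls and 0.21 ± 0.13 in the mulberry group (SD, n = 5 each; two-sided exact permutation p = 0.913). For beta-actin it was larger, 1.77 ± 0.22 and 1.64 ± 0.27 (exact permutation p = 0.405). For the label of liver, 9 of 10 hepatocyte markers were over the filter in these arrays, with albumin at 30278 ± 5907 in control and 32628 ± 5586 in mulberry rats.

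Interferons are secreted proteins that cells release on contact with microbial nucleic acid or on activation of lymphocytes. Type I and type III interferons signal through JAK kinases to a complex that contains STAT2 and IRF9 and binds the interferon-stimulated response element (ISRE). Type II interferon acts on promoters through TTCNNNGAA, the GAS element. The induced genes encode RNA sensors, proteins that block viral replication, chemokines that draw T cells, guanylate-binding proteins, and the regulators that renew or end the signal. In liver both hepatocytes and resident macrophages respond to interferon.

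The promoters of the members are shown first. The list was assembled as interferon-stimulated genes, so the motif shares are a description. Whether the motifs bear on the values of the rats was not tested. RefSeq promoter windows of 300 bases, from 250 before to 50 after the gene start (GRCr8), were found for 26 of the 33 members by gene identifier; Dhx58, Adar, Mx2, Ifit1, Ifit2, Isg15 and Usp18 had no entry. The ISRE core, searched on both strands as GAAA, any 2 bases and GAAA, occurred in 16 of these 26 windows (61.5%), against 3.92% of all 33469 rat windows of this length. TTCNNNGAA, which reads the same on both strands, occurred in 10 of 26 (38.5%), against 8.87% of all windows. The matches of the 2 motifs overlapped in Bst2 only, by 3 bases. A match describes letters in the window and is not a measured binding site.

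Of the 12 members with the largest absolute difference between the groups, 10 had a window and 7 of those held the ISRE core. The 6 of these with the largest difference are printed, 5′ to 3′ on the strand of the gene, with the match in capitals. Their windows are Gbp7 chr2:233948639-233948938 on the plus strand, Lgals3bp chr10:104127799-104128098 on the minus strand, Irf7 chr1:205799974-205800273 on the minus strand, Cxcl10 chr14:15988816-15989115 on the plus strand, Gbp2 chr2:234005477-234005776 on the plus strand and Eif2ak2 chr6:21940904-21941203 on the plus strand.
Gbp7: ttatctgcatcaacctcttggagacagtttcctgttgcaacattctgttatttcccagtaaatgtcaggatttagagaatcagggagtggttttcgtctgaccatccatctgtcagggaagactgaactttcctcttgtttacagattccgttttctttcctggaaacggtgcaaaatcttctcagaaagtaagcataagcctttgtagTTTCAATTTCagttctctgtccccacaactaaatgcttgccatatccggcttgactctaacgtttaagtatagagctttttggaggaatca
Lgals3bp: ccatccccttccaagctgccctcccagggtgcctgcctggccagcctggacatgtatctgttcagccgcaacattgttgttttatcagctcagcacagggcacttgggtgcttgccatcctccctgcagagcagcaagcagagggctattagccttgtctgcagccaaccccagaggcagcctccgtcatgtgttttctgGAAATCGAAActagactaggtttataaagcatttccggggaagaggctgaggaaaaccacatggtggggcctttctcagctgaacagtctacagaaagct
Irf7: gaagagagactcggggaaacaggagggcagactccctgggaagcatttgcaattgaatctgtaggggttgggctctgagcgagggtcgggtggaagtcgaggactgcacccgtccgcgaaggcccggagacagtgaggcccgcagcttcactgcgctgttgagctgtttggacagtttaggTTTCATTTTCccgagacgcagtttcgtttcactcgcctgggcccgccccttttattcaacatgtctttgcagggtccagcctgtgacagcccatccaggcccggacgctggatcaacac
Cxcl10: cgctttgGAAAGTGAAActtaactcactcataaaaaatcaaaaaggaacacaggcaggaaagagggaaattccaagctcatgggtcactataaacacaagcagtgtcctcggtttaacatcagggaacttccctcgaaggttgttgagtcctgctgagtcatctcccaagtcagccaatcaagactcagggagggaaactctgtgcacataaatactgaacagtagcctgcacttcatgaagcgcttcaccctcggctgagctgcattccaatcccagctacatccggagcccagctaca
Gbp2: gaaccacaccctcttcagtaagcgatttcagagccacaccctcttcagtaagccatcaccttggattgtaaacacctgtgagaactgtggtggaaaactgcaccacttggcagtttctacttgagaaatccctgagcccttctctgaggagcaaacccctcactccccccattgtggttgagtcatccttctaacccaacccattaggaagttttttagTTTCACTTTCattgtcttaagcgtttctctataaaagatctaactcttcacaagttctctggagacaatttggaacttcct
Eif2ak2: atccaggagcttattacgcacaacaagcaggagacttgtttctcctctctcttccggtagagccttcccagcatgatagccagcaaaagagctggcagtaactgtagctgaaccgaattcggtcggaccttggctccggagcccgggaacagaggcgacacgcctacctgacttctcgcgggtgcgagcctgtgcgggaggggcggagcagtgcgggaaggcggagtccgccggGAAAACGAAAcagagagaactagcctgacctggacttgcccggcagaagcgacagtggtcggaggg
The match began at position -41 in Gbp7, -50 in Lgals3bp, -69 in Irf7, -31 in Gbp2 and -16 in Eif2ak2, counted from the gene start, and lay farther away at -243 in Cxcl10. On the printed strand it read in the reverse direction in Gbp7, Irf7 and Gbp2. Oas1a, the seventh, held 2 overlapping matches at -41 and -35.

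Most members had a higher mean in mulberry rats, by small amounts, and no member separated the groups. Of 33 genes, 28 had a higher and 5 a lower mean, where 51.3% of all tested genes had a higher mean. The median of the differences (mulberry minus control, as log2(intensity + 16)) was 0.18, against 0.0035 over all genes, and it was 0.11 without control rat 5 and 0.12 without mulberry rat 5. Without both rats numbered 5 it was 0.066, with 19 of 32 members higher. Single members ranged from -0.17 for Dhx58 to 1.07 for Gbp7. The number of members whose control and mulberry values did not overlap was 0 of 33, against 0.32% of all genes. Of the members 12 were higher by more than 0.2, against 9.45% of all genes. With limma, 0 members had a Benjamini-Hochberg adjusted p under 0.05, as had 0% of the 18625 probe sets, of which 325 (1.74%) had an unadjusted p under 0.05. Of the members 4 (Gbp7, Mx1, Irf7 and Lgals3bp) had an unadjusted p under 0.05, against 1.79% of all genes, and leaving out 1 rat gave 3 to 7 members (6 without control rat 1, and 7 without control rat 4 or without mulberry rat 4). Without both rats numbered 5 it was 1 member. Of all 18625 probe sets, 330 had an unadjusted limma p under 0.05 without control rat 1 and 345 without control rat 4. Without control rat 5, which gave 3 members, 316 had. For the fits without mulberry rat 4 and without both rats numbered 5, the count over all probe sets is not given here. Nothing is read from these counts, because the contrast chose the list. In whole liver, fewer cells of a type and less RNA per cell cannot be told apart.

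**Figure D1:**
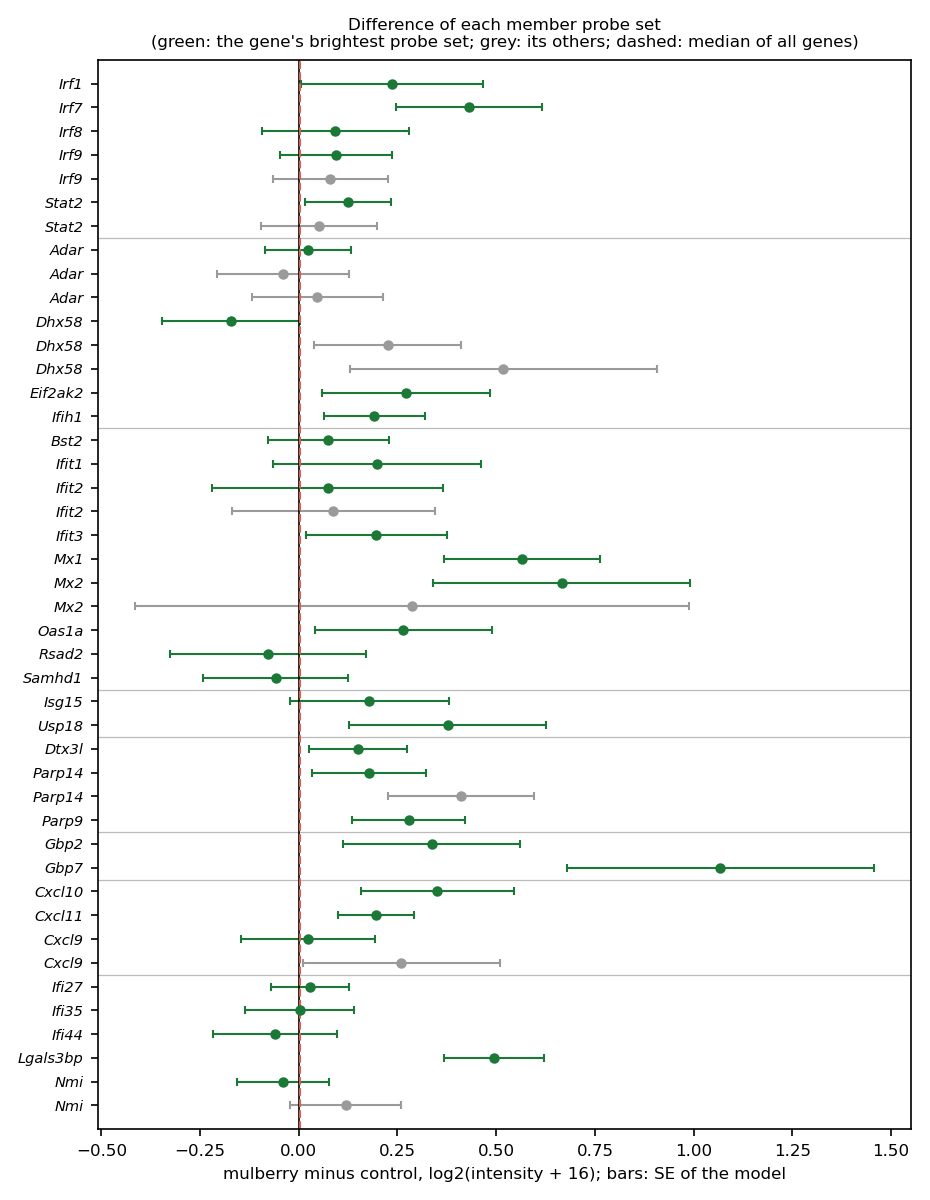
Difference between mulberry and control rats for each of the 44 member probe sets, on the log2(intensity + 16) scale with the SE of the model; green points are the probe set that stands for the gene, grey points its others, and the dashed line is the median of all tested genes at 0.0035. Most points lie right of 0, and Gbp7 lies farthest out at 1.07 ± 0.39.

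All 5 transcription factors had a higher mean in mulberry rats (median 0.12), and Irf7 had the largest difference among them. Stat2, which encodes the activating subunit of the ISRE-binding complex, was at 1115, 1129.9, 1039, 1135 and 1322 in control rats 1 to 5 and at 1059.7, 1226, 1464, 1236 and 1294 in mulberry rats 1 to 5. Its groups overlapped over most of their range (log2 difference 0.12 ± 0.11, SE of the model; rats are listed in this order and differences in this form from here on). Irf9, the DNA-binding partner of STAT2, read 852, 1033, 897, 988 and 685 in the controls and 1023, 751, 924, 902 and 1166 in mulberry rats. Control rat 5 was the lowest and mulberry rat 5 the highest (0.09 ± 0.14, and -0.07 without these 2 rats).

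Irf7, the factor that amplifies type I interferon production, stood at 649, 569, 601, 496 and 368 in the controls and 638, 642, 612, 683 and 1094 in mulberry rats. The same 2 rats were lowest and highest, and the other 4 mulberry rats lay within 612 to 683, beside the upper controls (0.43 ± 0.18, or 0.15 without both rats). Irf1, which responds chiefly to type II interferon, was at 531, 388, 415, 279 and 228 in the controls and 652, 385, 381, 317 and 421 in mulberry rats. Mulberry rat 1 and control rat 1 were its highest values, and the groups overlapped (0.24 ± 0.23, or 0.081 without mulberry rat 1). Irf8, a factor of macrophages and dendritic cells, had means of 350.2 ± 63.1 in the controls and 380.5 ± 98.4 in mulberry animals (SD, n = 5 each; 0.09 ± 0.19), and its sign turned without mulberry rat 5 (-0.014).

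Of 9 antiviral effectors 7 had a higher mean in mulberry rats (median 0.20), with Mx1, Mx2 and Oas1a farthest. Mx1, a GTPase that traps viral nucleocapsids, was at 135, 243, 170.0, 226 and 134 in the controls and 248, 265, 234, 231 and 395 in mulberry rats. Control rat 2 lay among the 4 lower mulberry rats. Control rat 4 lay just below every mulberry rat, and the other 3 controls lay farther below (0.57 ± 0.20, or 0.34 without both rats numbered 5). Mx2, its neighbour on chromosome 11, read 476, 551, 201, 422 and 153 in the controls and 702, 507, 483, 331 and 672 in mulberry rats. Control rats 3 and 5 stood low and the other controls lay among the mulberry rats (0.67 ± 0.32, or 0.41 without control rat 5).

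A second, dimmer Mx2 probe set showed another picture: it read 317, 349.6, 347, 293 and 30.4 in the controls and 596, 32.7, 311, 288 and 563 in mulberry rats. Mulberry rat 2 was thus low on this probe set and at 507 on the brighter one, while control rat 5 was low on both (0.29 ± 0.70). Oas1a, an enzyme that activates RNA cleavage on contact with double-stranded RNA, was at 536, 553, 478, 607 and 268 in the controls and 700.5, 472, 531, 427 and 795 in mulberry rats. Apart from control rat 5 the control values lay inside the mulberry range, and the difference of 0.26 ± 0.22 became -0.05 without both rats numbered 5.

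The IFIT genes, which encode RNA-binding inhibitors of translation and lie close together on chromosome 1, each ordered the rats in another way. Ifit2 was highest in control rats 1 and 2 (1270.0 and 1230.3) and lowest in control rat 3 (416), with mulberry rats between 591 and 1169.8 (0.07 ± 0.29). Its sign turned without control rat 3 (-0.14), control rat 4 (-0.04) or mulberry rat 3 (-0.06). Its other probe set had the same highest and lowest rats, at 603 and 211. Ifit3 was at 161, 162, 163 and 163 in 4 mulberry rats and at 232 in mulberry rat 5, with controls from 113 to 214 (0.20 ± 0.18, or 0.10 without mulberry rat 5). Ifit1 was dim, with a lowest value of 31.1 and a highest of 98.8, both in control rats (0.20 ± 0.26, or 0.035 without control rat 4). Rsad2, the enzyme viperin, was highest in mulberry rat 2 and control rat 4, at 547 and 528, and at most 361 elsewhere (-0.08 ± 0.25, from -0.28 without mulberry rat 2 to 0.09 without control rat 4).

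The 2 remaining effectors had small differences. Bst2, a tether of budding virions, was at 4176 ± 636 in the controls and 4451 ± 974 in mulberry rats (0.07 ± 0.15). Samhd1, a nucleotide hydrolase, was at 147 ± 28.5 and 142 ± 31.3 (-0.06 ± 0.18). The sign of each turned on leaving out either of 2 single rats.

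**Figure D2:**
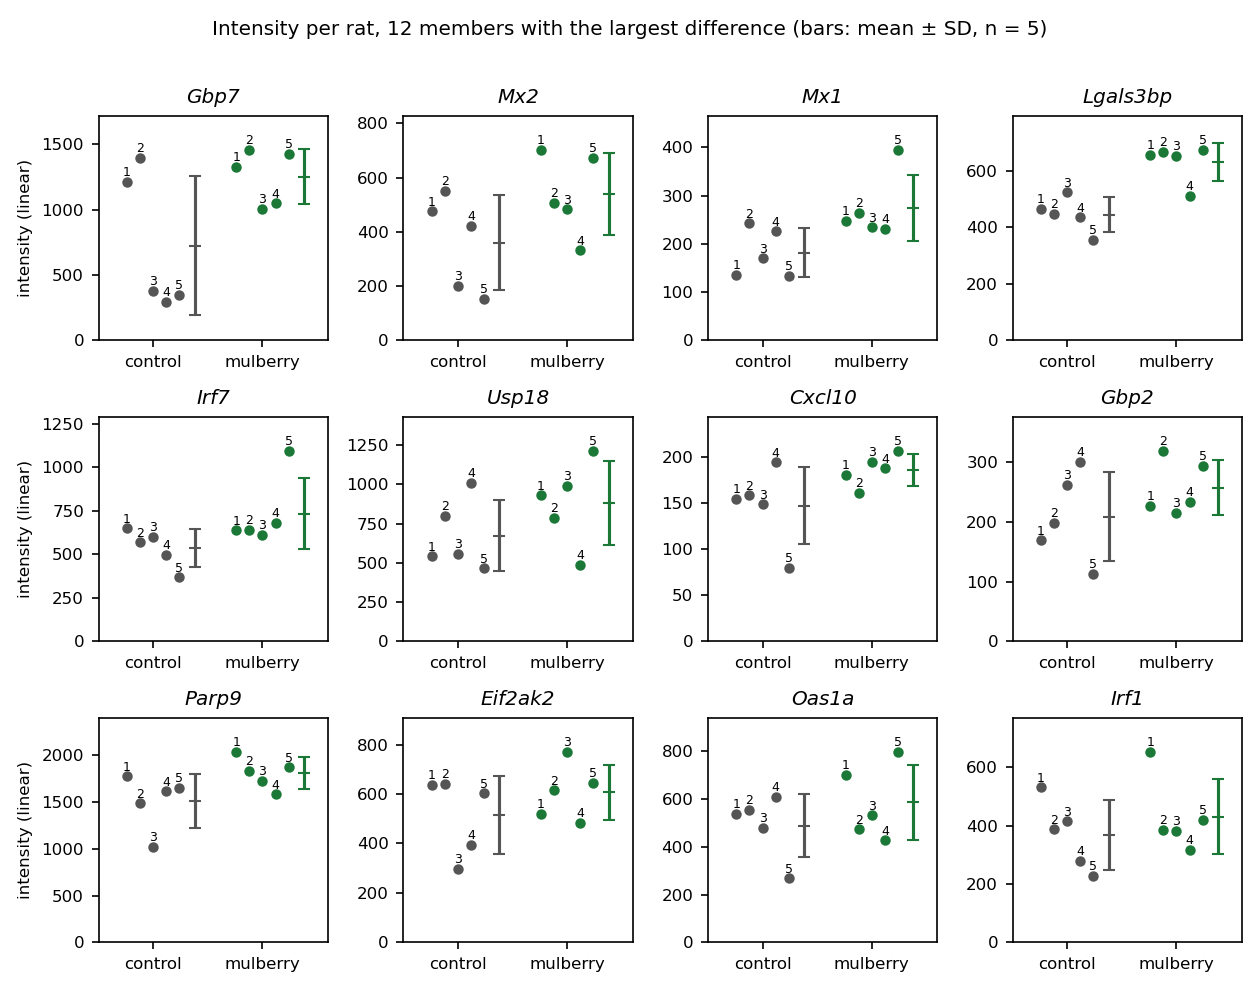
Linear intensity in each rat for the 12 members with the largest absolute log2 difference; points carry the rat number and bars give mean ± SD (n = 5). The groups overlap in each panel, control rat 5 is the lowest of all rats in 9 of the 12, and Gbp7 falls into 2 separate levels.

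Of the 3 RNA sensing or editing genes and the RNA-activated kinase, 3 of 4 had a higher mean in mulberry rats (median 0.11). Eif2ak2, the kinase that stops translation on contact with double-stranded RNA, was at 638, 642, 298, 394 and 603 in the controls and 521, 615, 769, 484 and 646 in mulberry rats. Its low values were control rats 3 and 4, and control rat 5 lay among the mulberry rats (0.27 ± 0.21, or 0.097 without control rat 3). Ifih1, the sensor of long double-stranded RNA, had a narrow control range of 290.0 to 339 and read 292 to 453 in mulberry rats (0.19 ± 0.13, or 0.12 without mulberry rat 1). Dhx58, its regulator, was the member with the lowest difference (-0.17 ± 0.18), but its other 2 probe sets had higher means in mulberry rats (0.22 ± 0.19 and 0.52 ± 0.39). The probe set at -0.17 and the one at 0.52 carry a suffix that Affymetrix gives to sets with probes shared by other transcripts, so Dhx58 is uncertain. Adar, which edits adenosine in double-stranded RNA, was flat on its 3 probe sets, at 0.02 ± 0.11, -0.04 ± 0.17 and 0.05 ± 0.17.

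Usp18 and Isg15 form a pair of modifier and remover, and both were highest in mulberry rat 5 and lowest in control rat 5. Usp18, the protease that strips ISG15 and dampens the type I receptor, was at 541, 801, 555, 1009.6 and 464 in the controls and 930.4, 788, 989.7, 487 and 1212 in mulberry rats. Its groups overlapped over most of their range, with mulberry rat 4 down among the low controls (0.38 ± 0.25, or 0.13 without both rats numbered 5). Isg15, the ubiquitin-like modifier, ran from 389 to 699 in the controls and from 484 to 932 in mulberry rats (0.18 ± 0.20, or -0.08 without both rats numbered 5).

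Parp9, Dtx3l and Parp14, which act together in ADP-ribosylation and ubiquitination and neighbour one another on chromosome 11, shared their extreme rats. Parp9 was at 1771, 1483, 1018, 1610.5 and 1651 in the controls and 2028, 1827, 1724, 1579 and 1865 in mulberry rats. Control rat 3 stood alone at the bottom and mulberry rat 1 at the top (0.28 ± 0.14, or 0.14 without control rat 3). Dtx3l ran from 1283 to 1952 in the controls and from 1596 to 1992 in mulberry rats, with the same 2 rats at the ends (0.15 ± 0.12, or 0.069 without control rat 3). Parp14 again had them at the ends, at 782 and 1448 (0.18 ± 0.14, or 0.076 without control rat 3), and also on its dimmer probe set, at 251 and 593 (0.41 ± 0.19).

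Among the guanylate-binding proteins, GTPases that attack microbe-containing vacuoles, Gbp7 had the largest difference of the whole list. It read 1210.0, 1393, 378, 296 and 345 in the controls and 1326, 1456, 1005, 1047 and 1426 in mulberry rats. Control rats 1 and 2 lay at the mulberry level, the other 3 controls far below, and no rat lay between 378 and 1005 (1.07 ± 0.39). Its neighbour Gbp2, with 1 protein-coding gene between them on chromosome 2, was at 169.6, 199, 263, 301 and 113 in the controls and 227, 319, 215, 234 and 294 in mulberry rats. It did not share the 2 levels: control rats 3 and 4, low for Gbp7, were the highest controls for Gbp2 (0.34 ± 0.22, or 0.15 without control rat 5).

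The chemokines Cxcl9, Cxcl10 and Cxcl11, which act on the same receptor of T cells and lie side by side on chromosome 14, all had a higher mean (median 0.20). Cxcl10 was at 155, 159, 149, 194 and 79.4 in the controls and 181, 161, 195, 188 and 207 in mulberry rats. Without control rat 5, far below the rest, the difference of 0.35 ± 0.19 was 0.17. Cxcl11 lay between 1439 and 1785 in the controls and between 1694 and 1987 in mulberry rats, with overlap between 1694 and 1785 (0.20 ± 0.10). Cxcl9 was at 0.02 ± 0.17 on its brighter probe set and 0.26 ± 0.25 on the other.

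Of the other members, Lgals3bp was the one with the largest difference relative to its error. This secreted glycoprotein was at 466, 447, 523, 434 and 354 in the controls and 655, 667, 652, 512 and 673 in mulberry rats. Only mulberry rat 4 fell inside the control range, just under control rat 3 (0.50 ± 0.13, and 0.39 without both rats numbered 5). Ifi27, a mitochondrial and nuclear membrane protein, was at 22000.0 ± 2729 in the controls and 22394 ± 2334 in mulberry rats (0.03 ± 0.10). Ifi35 and its partner Nmi differed by 0.0019 ± 0.14 and -0.04 ± 0.12, and Ifi44 by -0.06 ± 0.16. Nmi's dimmer probe set had the other sign (0.12 ± 0.14), which with Dhx58 and Adar makes 3 of the 9 members with several probe sets that differ in sign.

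The members often shared the rat that was lowest or highest. Control rat 5 was the lowest of all 10 rats in 15 of 33 members (45.5%), against 8.15% of all tested genes. These were Mx1, Mx2, Oas1a, Isg15, Usp18, Irf1, Irf7, Irf9, Ifih1, Adar, Gbp2, Cxcl10, Lgals3bp, Ifi27 and Ifi35. Mulberry rat 5 was the highest in 10 members (30.3%), against 9.89% of all genes, and mulberry rat 1 in 7 (21.2%, against 8.68%). Control rat 5 lay below the gene's mean in 27 of 33 members and mulberry rat 5 above it in 29, where over all genes these shares were 51.2% and 56.2%. After a shift of the arrays to a common median, control rat 5 was the lowest in 9 of 33 members, down from 15. Its share over all genes after that shift is not given here, so the 9 cannot be set against it. The list was proposed from the group difference in the same values, so these shares are a description and no test applies.

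**Figure D3:**
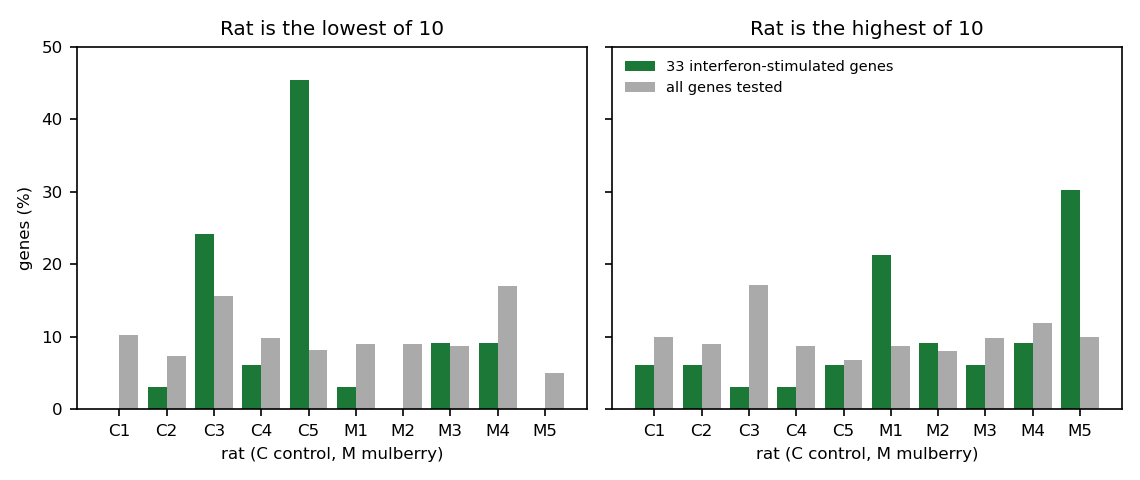
Share of genes in which each rat was the lowest (left) or the highest (right) of the 10, for the 33 members (green) and for all tested genes (grey). Among the members the largest share is 45.5% for control rat 5 on the left and 30.3% for mulberry rat 5 on the right.

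Control rat 3 was the lowest rat in 8 members (24.2%, against 15.7% of all genes): Stat2, Ifit2, Ifit3, Eif2ak2, Parp9, Dtx3l, Parp14 and Nmi. In these 8 the median deviation from the gene's mean was -0.49 in control rat 3 and -0.04 in control rat 5. In the 15 members lowest in control rat 5 it was -0.64 in that rat and -0.02 in control rat 3. The median group difference was 0.16 in the set of 8 and 0.26 in the set of 15. Both sets were formed from these values, so no test applies. Control rat 3 was also the highest rat in 17.1% of all genes, so it stood at an end of the range more often than most rats. The 8 members are therefore not read as a group of their own. Neighbouring genes fell into the same set in the case of Parp9, Dtx3l and Parp14, of Ifit2 and Ifit3, and of Mx1 and Mx2, but Cxcl9, Cxcl10 and Cxcl11 had 3 different lowest rats, and Ifit1 and Gbp7 were lowest in control rat 4, unlike Ifit2, Ifit3 and Gbp2.

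**Figure D4:**
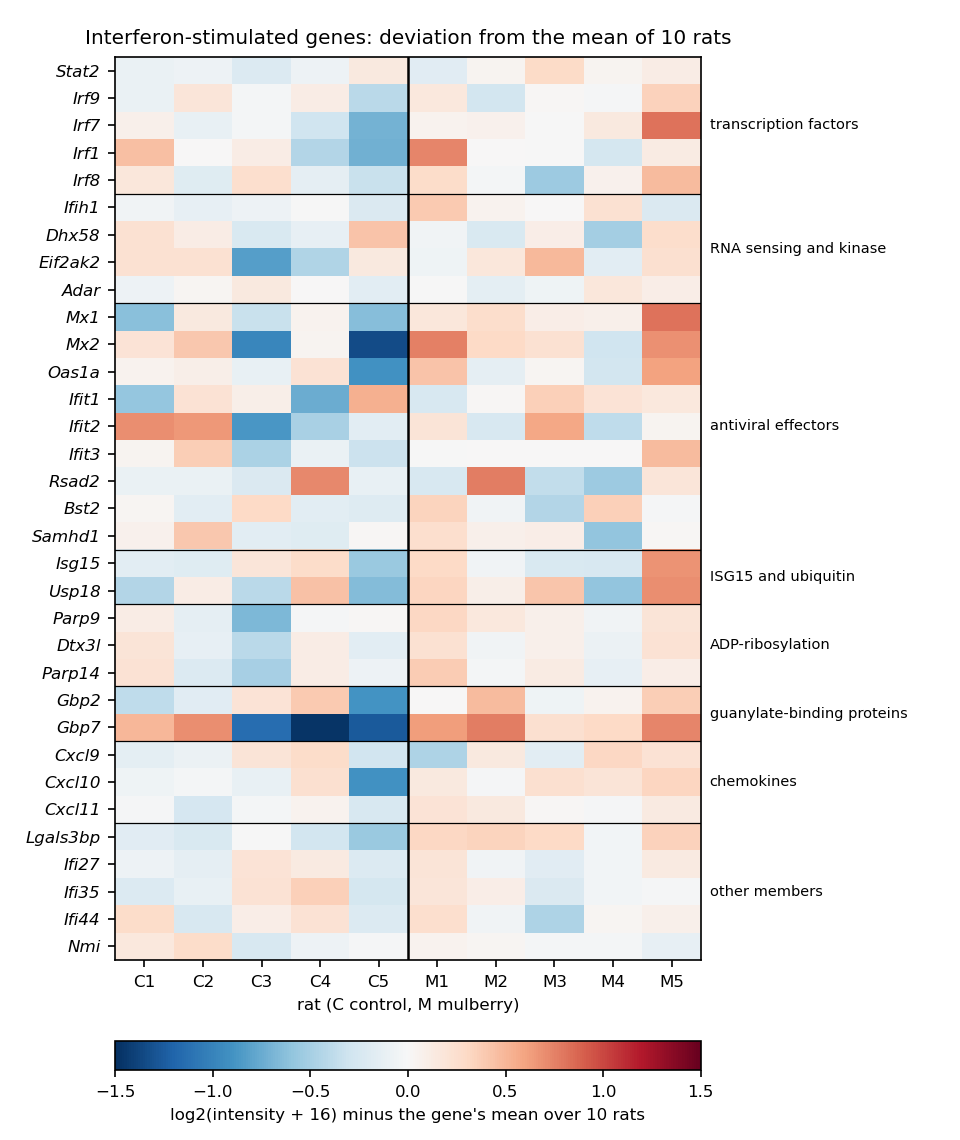
Deviation of each of the 33 members in each rat from the gene's mean over 10 rats, on the log2(intensity + 16) scale, with members grouped by role. The column of control rat 5 is mostly blue and that of mulberry rat 5 mostly red, while in the ADP-ribosylation block control rat 3 is the lowest.

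The spread within groups was somewhat larger in the members than in other genes. The median within-group SD was 0.28 for members and 0.24 for all tested genes, and 23 of 33 members lay over the latter. The brightest rat exceeded the dimmest by a median of 2.06 times. Their mean level was ordinary, with a median of 9.06 on the log2 scale against 9.04 for all genes.

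Genes upstream of the members had medians near 0. Interferon genes themselves were not measured above the filter: Ifnb1, Ifng and Ifnk had probe sets that lay under it. The 5 receptor genes tested had higher means by little, from 0.00089 ± 0.15 for Il10rb to 0.11 ± 0.19 for Ifnar1 (median 0.036). Among 11 kinases, STATs and brakes 6 were higher on average (median 0.0067), with Stat3 at -0.20 ± 0.18, the phosphatase gene Ptpn2 at -0.19 ± 0.13 and the feedback inhibitor Socs3 at -0.15 ± 0.21. Of 13 nucleic acid sensing genes 7 had a higher mean (median 0.0049), with the adaptor Sting1 at -0.39 ± 0.24 and the RNA receptor Tlr7 at 0.23 ± 0.24. Both of these were dim and near the filter. Sting1 had means of 82.3 in control and 59.3 in mulberry rats, and Tlr7 of 57.2 and 69.7. With limma, 0 genes of these lists passed an adjusted p of 0.05, and 0 had an unadjusted p under 0.05.

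Other interferon-stimulated genes that are not members had a smaller median difference. Of 58 listed, 36 were tested and 28 of these were higher on average; their median was 0.091, and 0 had an adjusted or unadjusted limma p under 0.05. Slfn4, a schlafen gene of myeloid cells, was at 425 ± 239.9 in the controls and 708 ± 300.2 in mulberry rats (0.76 ± 0.39). Ifi44l was at 0.34 ± 0.20 and the GTPase gene Irgm at 0.34 ± 0.28. The summed intensity of the 36 genes was lowest of all rats in control rat 5 at 36948 and highest in mulberry rats 1 and 5 at 47122 and 46790. This sum follows the brightest genes. By the median deviation over the 36 genes control rat 5 was again the lowest at -0.20, with mulberry rat 4 next at -0.17. Mulberry rat 5 was the highest at 0.11, but mulberry rat 1, at 0.062, lay below control rats 1 and 2 at 0.095 and 0.075. Antigen presentation genes had a higher mean in 16 of 20 cases (median 0.13). Among them were the peptide transporter gene Tap1 at 0.37 ± 0.20 and the class II chaperone gene RT1-DMb at 0.43 ± 0.18. The class II gene RT1-Bb was at -0.74 ± 0.81, with mulberry rat 1 at 4.29 against 146 to 819 in the other mulberry rats. Its linear means were 421 in control and 402 in mulberry rats. Of the 20 antigen presentation genes, RT1-DMb had an unadjusted limma p under 0.05 and 0 passed an adjusted p of 0.05.

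**Figure D5:**
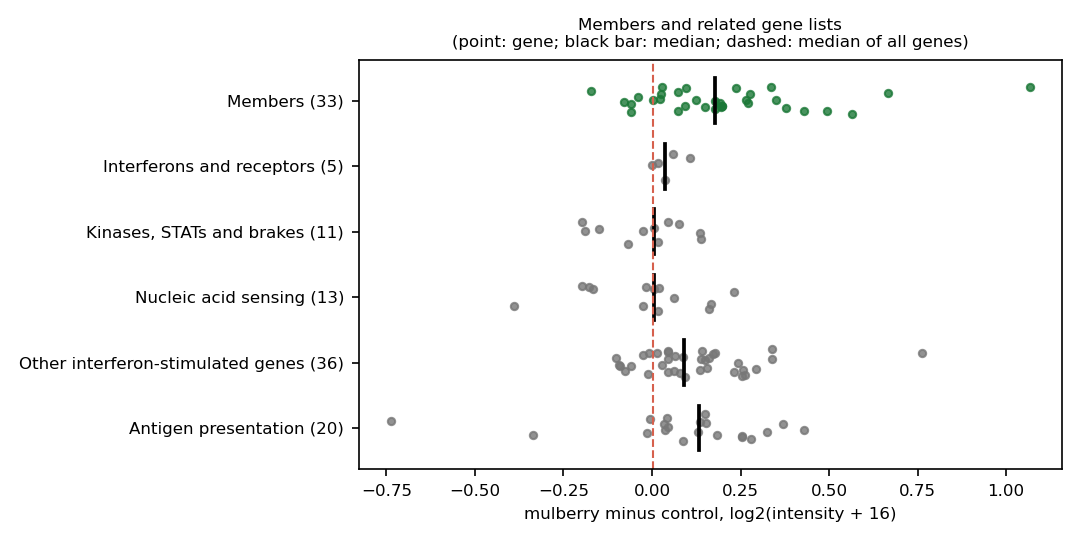
Difference between mulberry and control rats on the log2(intensity + 16) scale for each tested gene of the member list and of 5 related lists; black bars are list medians and the dashed line is the median of all tested genes. The median is 0.18 for the members, 0.091 for other interferon-stimulated genes and 0.13 for antigen presentation, and the 3 upstream lists lie within 0.036 of 0.

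Markers of immune cells were measured beside the members, and their part in the result was not tested. Of 19 markers of T, B and NK cells 11 were over the filter, and their summed intensity was 1150.3 to 1551 in the controls and 1347 to 1454 in mulberry rats. It was lowest in control rat 5 and, among mulberry rats, highest in rat 5, but the sum follows the brightest markers. By the median deviation over these 11 genes control rat 5 was again the lowest at -0.19, control rat 3 was the highest at 0.21, and mulberry rat 5, at 0.05, ranked 4th of the 5 mulberry rats. Cd3d, Cd3e, Cd8b, Cd2, Cd79b and Ncr1 lay under the filter. Macrophage and Kupffer cell markers, 13 of 16 tested and 10 with a higher mean, summed to 25595 to 37019.7 in the controls and 17377 to 38710 in mulberry rats. There control rat 5 was at 26687 and mulberry rat 5 at 33909, inside the range of their groups, and mulberry rat 3 was the lowest. This sum, too, follows the brightest markers. By the median deviation over the 13 genes control rat 5 was at -0.18, above control rats 1 and 2 at -0.38 and -0.24. Mulberry rat 5 was at 0.29, below mulberry rat 4 at 0.41. Control rat 3 was the highest at 0.56 and mulberry rat 3 the lowest at -0.60. Within that list Lyz2 was at -0.96, Cd68 at 0.39 and Cd14 at -0.38, the last 2 with an unadjusted limma p under 0.05. The 3 dendritic cell markers tested of 8 summed to 475 to 551 in the controls and 411 to 611 in mulberry rats, with mulberry rat 5 the highest. Flt3, Clec9a and Batf3 were under the filter. Of the neutrophil markers 4 of 8 were tested and 3 had a lower mean, among them S100a9 at -0.77 ± 0.19 and S100a8 at -0.62 ± 0.27, both with an unadjusted limma p under 0.05. Their sums were 378 to 574 in the controls and 239.8 to 520.3 in mulberry rats. Endothelial markers (8 of 10 tested, 5 higher) summed to 9257 to 11339 and 9897 to 11586. Hepatocyte markers (9 of 10 tested, 7 higher) summed to 213349 to 261561 and 212763 to 262678. No tested marker was listed at the lowest intensity of 1 in any rat.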

How the data were processed

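Per the submitters' processing notes, MAS5 and the affy package were used, with version and role not given in the sources used here. The authors deposited linear intensity values for 31099 probe sets; the mean after trimming 2% at each end was 500 on every array, so the values were taken as already scaled. Median intensity per array was 97.5 to 118. From these, log2(intensity + 16) was computed, which understates differences of dim probe sets. The 57 control probe sets, and those whose mean did not exceed the 40th percentile (an intensity of about 61.2), were left out.

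Groups were compared over all 18625 remaining probe sets with limma 3.58.1 in R 4.3.3 (lmFit, eBayes with a variance trend, Benjamini-Hochberg adjustment, threshold 0.05), which was tested on simulated data. Where a gene had several tested probe sets, the one of highest mean stood for it. Differences carry the SE of the model and group means the SD. Intensities of different probe sets were not compared as RNA amounts. Python 3.11.15 with pandas 2.3.3, numpy 2.4.6 and matplotlib 3.10.9 was used otherwise.

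The members and lists were chosen with earlier results of these data known. Values of every rat are given for the 12 members with the largest absolute difference and for Stat2, Irf9, Irf1 and Irf7. Of the related lists at most 3 members with the largest difference are named, and the receptor range in full. All 33 members matched RefSeq genes of GRCr8 by identifier, and promoter sequences are RefSeq's. Alternatives were pseudocounts of 1 and 64, no filter or the 60th percentile, quantile normalization, arrays shifted to a common median, a constant prior variance, the replicate number as a block, leaving out rats, and the median over a gene's probe sets. Same-numbered rats of the groups did not deviate together (correlations -0.33 to 0.096), so the numbers were not taken to pair them. The number of arrays limits the precision.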

Additional observations from a re-analysis of the deposited data

Results flagged for a closer look

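In each group of 5 rats, a value was marked when its gap to the nearest rat, divided by the group's range on the log2(intensity + 16) scale, was above 0.71. Chance marks about 5% of groups; 9 were marked among 88 groups of member probe sets (10.2%), against 5.86% of the groups of all tested probe sets. Mulberry rat 5 was the marked highest rat for Ifit3 (gap 0.967 of the range; 232 against 163 in the next rat), Irf7 (0.812; 1094 against 683) and Mx1 (0.748; 395 against 265). Mulberry rat 4 was the marked lowest for Lgals3bp (0.883; 512 against 652) and Samhd1 (0.723; 89.2 against 144). Control rat 4 was the marked highest for Rsad2 (0.876; 528 against 293).

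The other marked values lay on second probe sets. On the dimmer Mx2 probe set, control rat 5 (0.918; 30.4 against 293) and mulberry rat 2 (0.723; 32.7 against 288) were each far below their group. On a Dhx58 probe set control rat 3 was low (0.794; 24.6 against 130.1). Gbp7, with its 2 levels, was not marked, since 3 controls shared the low level.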

How the results depend on the processing

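The number of probe sets past an adjusted limma p of 0.05 was 0 in all 19 other fits, including the replicate block, and 286 had an unadjusted p under 0.05 with that block against 325 without. The median member difference lay between 0.15 and 0.20 under the other pseudocounts, filters, scalings and the median over a gene's probe sets, between 0.11 (without control rat 5) and 0.21 (without control rat 1) when 1 rat was left out, 0.12 without mulberry rat 5, and 0.066 without both rats numbered 5. Members with a higher mean numbered 23 of 32 (without control rat 5, when Ifit1 fell under the filter) to 29 with 1 rat left out, and 19 of 32 without both. Control rat 5 was the lowest in 9 members after the median shift, against 15 without it. Its share over all genes after the shift is not given here. Over the 20 alternatives, 18 of 33 members kept their sign wherever they were tested and 15 did not. Of the 18, Ifit1, Ifit3 and Cxcl10 were not tested under the stricter filter. Ifit1 was also not tested without control rat 5 or without both rats numbered 5. No scaling moved the median of all genes by over 0.1. Detection calls were not used, so the filter stands in for them.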

Other observations

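Few tested probe sets shared the split of rats seen in Gbp7. Only this split and that of the dimmer Mx2 probe set were searched, so how often probe sets fall into 2 levels was not counted. A gap of more than 1 on the log2 scale between control rats 3, 4 and 5 and all other rats was found for 1 of 18625 tested probe sets, Gbp7 itself. A gap of more than 0.5 was found for 2, the other being a dim probe set without a symbol, and for 0 in the opposite direction. The dimmer Mx2 probe set, with control rat 5 and mulberry rat 2 low, was less alone: with itself counted, 12 probe sets showed that split with a gap over 0.5 and 2 over 1. The other one over 1 had no symbol and was at 27.0 and 47.3 in these 2 rats, against 114 to 157 in the others. Dlc1, with a gap of 0.92, was at 10.9 and 29.5 against 70.3 to 227. Gzmb, a granule protease of cytotoxic lymphocytes, was at 20.1 and 46.0 against 72.4 to 113. Its gap of 0.51 was only just over the cut. Inpp5e, Adam10, Fnbp1 and Evl were also among the 12. Both searches were made after the member values had been seen.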
